A study of Mus musculus with 12 samples.

Results

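The transcripts of the inositol phosphate kinases were followed through the pubertal transition in oocytes of CD-1 mice. The family was defined by name as 10 genes, Itpka, Itpkb, Itpkc, Itpk1, Ipmk, Ip6k1, Ip6k2, Ip6k3, Ppip5k1 and Ppip5k2, and all 10 were found among the 24562 genes counted. They had been selected on the values of 1 comparison, competent vs. non-competent oocytes, in which several of them differed. Differences between those groups are therefore given as a description, without p-values. Each of 4 cohorts was represented by n = 3 RNA-Seq libraries, each from a pool of 18 to 45 oocytes, which gave 12 pools in all. These were postnatal day (PND) 13, PND 16 small and PND 16 large, divided by the body weight of the mouse, and PND 40. No mouse received gonadotropins, all were of the CD-1 strain, and the oocytes came from antral follicles of the ovary. The study classed 2 cohorts, PND 16 large as well as PND 40, as meiotically competent and the other 2 as non-competent. Competence was thus assigned to whole cohorts and not scored in the sequenced oocytes.

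Inositol phosphate kinases add phosphates to a soluble sugar alcohol ring. Phospholipase C releases inositol trisphosphate (IP3), which opens calcium channels of the endoplasmic reticulum and drives the calcium oscillations of the egg at fertilization. The IP3 3-kinases ITPKA, ITPKB and ITPKC turn IP3 into a tetrakisphosphate (IP4), which removes the calcium signal and is itself a messenger. IPMK, a multikinase, and ITPK1 lead to the pentakisphosphate, which IPPK converts to inositol hexakisphosphate (IP6, phytate). The IP6 kinases IP6K1, IP6K2 and IP6K3 then add a further phosphate to form a pyrophosphate (IP7), and PPIP5K1 and PPIP5K2, which also carry a phosphatase domain, make the most highly phosphorylated form (IP8). These pyrophosphates are known for their roles in phosphate balance, energy metabolism and vesicle traffic.

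The 3 IP6 kinases, paralogs that catalyse the same step, did not share a direction, and their promoters are shown for that reason. All 10 kinases matched RefSeq promoter windows on GRCm38.p6, each reaching from 250 bases before to 50 bases after the transcription start. That of Ip6k1 lies at chr9:108002398-108002697 (plus strand), the first of those listed for Ip6k2 at chr9:108783562-108783861 (plus strand) and that of Ip6k3 at chr17:27167715-27168014 (minus strand). Capitals mark matches on either strand to any of 5 short motifs. The GC box was searched as GGGCGG. The CCAAT box was searched by the letters of its name. For the TATA box the letters were TATAAA. A palindromic E-box was taken as CACGTG. The core bound by many homeobox proteins was written TAATTG.
Ip6k1: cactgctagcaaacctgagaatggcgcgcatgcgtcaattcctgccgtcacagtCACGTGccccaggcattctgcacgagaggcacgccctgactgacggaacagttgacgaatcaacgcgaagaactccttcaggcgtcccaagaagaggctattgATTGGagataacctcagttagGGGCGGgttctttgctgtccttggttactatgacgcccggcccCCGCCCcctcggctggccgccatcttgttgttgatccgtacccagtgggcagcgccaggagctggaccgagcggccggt
Ip6k2: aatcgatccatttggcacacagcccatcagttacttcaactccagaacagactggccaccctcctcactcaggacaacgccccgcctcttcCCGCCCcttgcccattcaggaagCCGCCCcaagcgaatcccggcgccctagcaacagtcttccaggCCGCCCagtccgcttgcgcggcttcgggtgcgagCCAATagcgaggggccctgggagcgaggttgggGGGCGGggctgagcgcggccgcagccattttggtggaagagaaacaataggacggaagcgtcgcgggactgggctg
Ip6k3: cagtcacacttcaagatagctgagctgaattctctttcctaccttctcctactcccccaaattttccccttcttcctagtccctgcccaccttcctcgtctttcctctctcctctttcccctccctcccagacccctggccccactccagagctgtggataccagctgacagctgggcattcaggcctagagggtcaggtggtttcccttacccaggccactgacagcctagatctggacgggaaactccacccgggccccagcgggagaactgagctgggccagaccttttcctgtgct
The Ip6k1 window held 2 GC boxes, 1 CCAAT box and 1 E-box, the Ip6k2 window 4 GC boxes and 1 CCAAT box, and the Ip6k3 window none of the 5 motifs. Of 32851 mouse promoter windows of the same length, 35.7% held the GC box, 37.4% the CCAAT box, 13.6% the TATA box, 7.15% the E-box and 8% the homeobox core. No matches overlapped in the printed windows. The printed windows had observed over expected CpG ratios of 0.85 (Ip6k1), 0.78 (Ip6k2) and 0.18 (Ip6k3) and GC contents of 60%, 64.3% and 57.7%. A further start listed for Ip6k2, not printed, had a CpG ratio of 0.27, a GC content of 54.7% and 1 GC box, closer to the Ip6k3 window, and the counts per gene do not tell which start was used. These letters describe the windows and say nothing of which factors bound them.

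Oocyte markers dominated the pools. Summed expression of 10 oocyte markers ranged from 13700 to 16900 CPM (the usual depth-normalized counts, with TMM scaling of the pools), against 128 to 426 CPM for 10 granulosa cell markers. Theca or stroma markers summed to 3.22 to 35.7 CPM, and blood or endothelial markers to 52.2 to 64.6 CPM, with both globin genes of that list at 0 in every pool. Nearly all of the latter sum came from 1 gene, Pecam1, at 52 to 64.6 CPM. Cdh5, the other endothelial marker, had 0 to 3 counts per pool, so this sum is no measure of blood or endothelial RNA. PND 13 replicates 1 and 3 and PND 16 small replicate 2 stood apart with granulosa sums of 376, 426 and 385 CPM, compared with at most 241 CPM in the other 9 pools. Between 17671193 and 27418358 reads were counted per pool. In such pools fewer cells of a type and less RNA per cell cannot be told apart.

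Per length of transcript, the kinase mRNAs spanned more than 2 orders of magnitude. Itpk1 was the most abundant of the 10 at a mean level of 74.4 CPM per kb of exon over the 12 pools (range, 54.8 to 87.3). Ipmk followed at 28.8 (22.9 to 33.1), Ppip5k2 at 22.6 (18.5 to 27.7) and Ip6k2 at 16.9 CPM per kb (12.8 to 21.1). These 4 genes formed an upper tier, and every pool had more Ip6k2 per kb than Ip6k1, the next gene. Ip6k1 averaged 2.6 CPM per kb, Ip6k3 1.58 and Ppip5k1 0.972. The 3 IP3 3-kinases were the rarest, with mean levels of 0.318 (Itpkc), 0.284 (Itpkb) and 0.202 CPM per kb (Itpka), and Itpkc exceeded Itpkb in only 5 of 12 pools, so that these neighbours did not differ beyond their spread. Ip6k3 and Ip6k1 also overlapped in range, although Ip6k1 was higher in 11 of 12 pools. Ippk, which makes IP6 and stands between the early and the late kinases, exceeded all of them at 127 CPM per kb (110 to 143).

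The sign of the fitted difference followed this division between tiers, but not every sign was certain. Itpkb and Ppip5k2 did not reach an adjusted p of at most 0.05 in edgeR in competent vs. non-competent oocytes. Without the 3 pools richest in granulosa markers, Itpkb was higher in competent oocytes (log2 fold change 2.04). In competent vs. non-competent oocytes, 5 of the 10 kinases were lower and met the criteria of the study (adjusted p of at most 0.05 in edgeR's quasi-likelihood test and at least a 1.5-fold change). All 5, Itpka, Itpkc, Ip6k1, Ip6k3 and Ppip5k1, came from the less abundant tier. Over all 13943 genes tested, 11.2% were lower by these criteria, and nothing is read from the members' count because this comparison chose them. No kinase was higher by the criteria, but Itpk1, Ipmk and Ip6k2 were higher with adjusted p-values of at most 0.05 and less than a 1.5-fold change. Of all genes, 14.2% were higher with such an adjusted p at any fold, those past 1.5-fold included. The pools of both groups did not overlap for Itpkc, Ip6k1, Ip6k3 and Ip6k2, a separation shown by 14.7% of all genes. The median log2 fold change was -0.40 over the 10 kinases and -0.005 over all genes. The division by level was also present in the whole transcriptome. Among the 8146 genes with a mean under 25 CPM, 15.3% were lower and 5.28% higher by the criteria. Their median log2 fold change was -0.14. Among the 4010 genes at 50 CPM or more, 3.37% were lower, 1.3% were higher and the median was 0.09. Rarer genes thus met the criteria more often in both directions. With adjusted p alone, 17.8% of the genes under 25 CPM were lower and 7.28% higher. At 50 CPM or more, where Itpk1, Ipmk and Ip6k2 belong, 12.6% were lower and 27.5% higher.

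**Figure D1:**
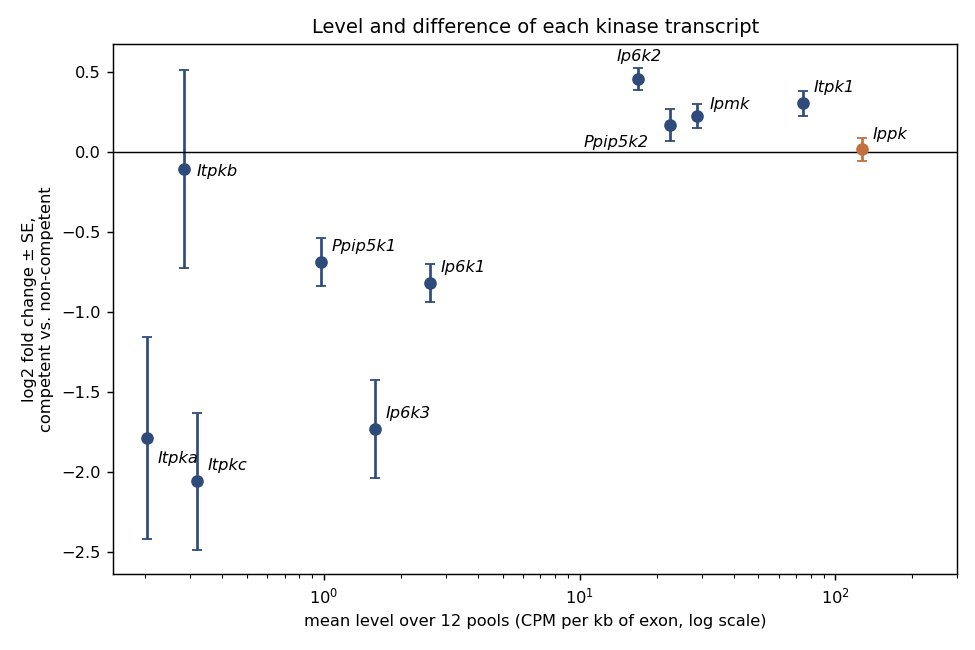
Mean level of each kinase over 12 pools (CPM per kb of exon, log axis) against its log2 fold change in competent vs. non-competent oocytes, with bars of ± 1 SE. The points of the 4 kinases at or above 16.9 CPM per kb lie above 0 and those of the 6 at or below 2.6 CPM per kb lie below it. The bar of Itpkb crosses 0. Ippk, in orange, lies at 0.02.

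**Figure D2:**
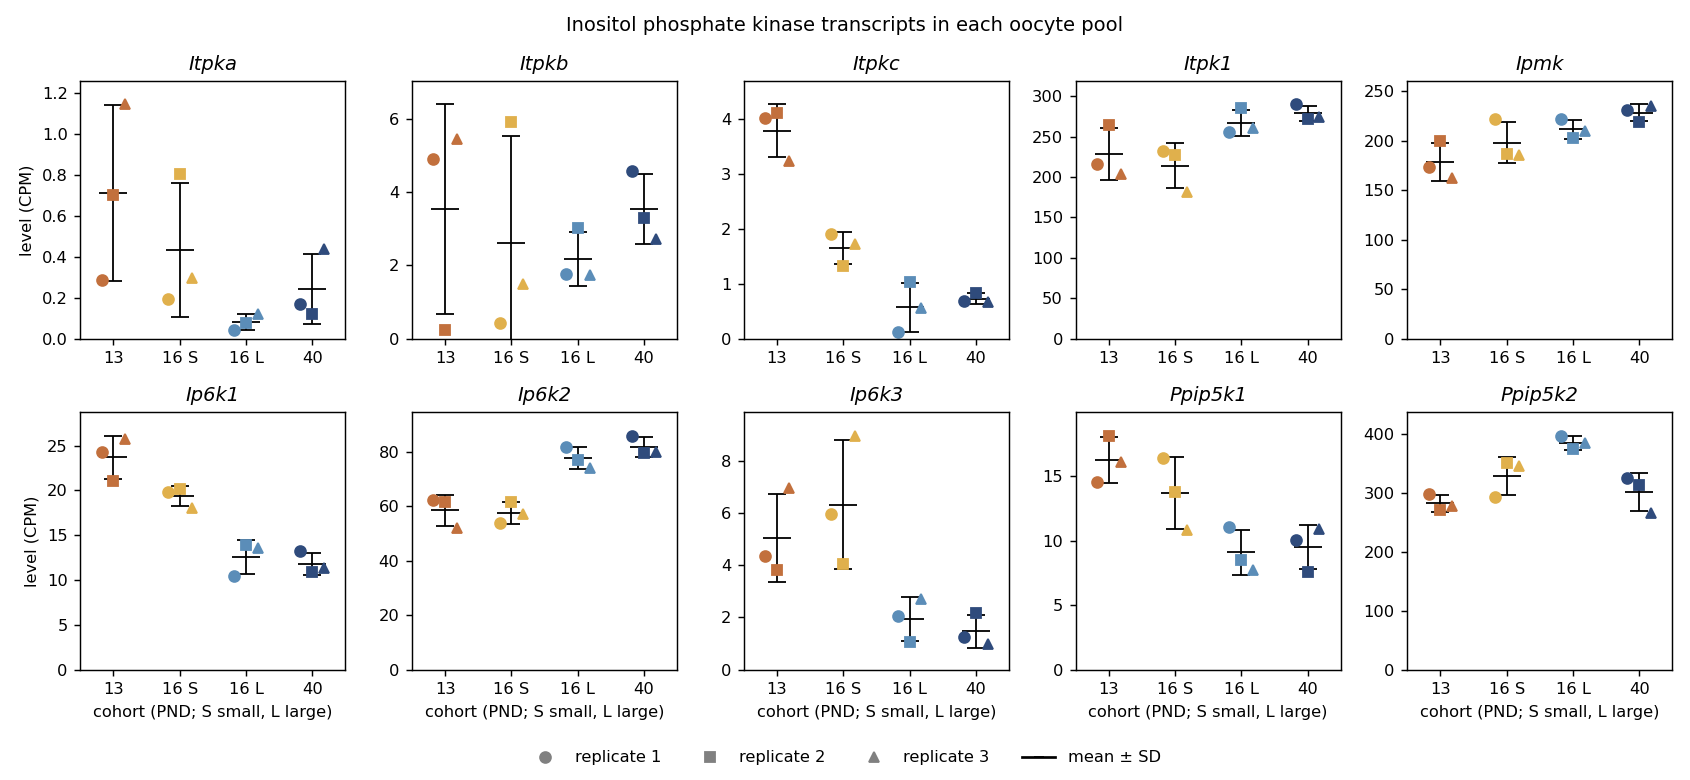
Level of each kinase (CPM, linear axes starting at 0) in every pool of the 4 cohorts, with the mean ± SD of n = 3 pools in black and the replicate number given by the symbol. The bar of Itpkb in PND 16 small reaches below 0 and is drawn from 0. Ip6k1 lies between 18.1 and 25.8 CPM in the 6 non-competent pools and between 10.4 and 13.9 CPM in the 6 competent ones.

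Of the IP3 3-kinases, which consume IP3, Itpkc differed most. Itpkc (chromosome 7, 27207172 to 27228661, minus strand) measured 4.01, 4.10 and 3.23 CPM in PND 13 and 1.90, 1.33 and 1.72 CPM in PND 16 small. It measured 0.123, 1.03 and 0.557 CPM in PND 16 large and 0.686, 0.836 and 0.661 CPM in PND 40. Each non-competent pool thus exceeded each competent pool, and each PND 13 pool exceeded each PND 16 small pool. The mean was 2.72 ± 1.22 CPM (SD, n = 6) in non-competent and 0.648 ± 0.305 CPM (n = 6) in competent oocytes, 4.17-fold lower (log2 fold change -2.06, SE 0.43). Between the non-competent cohorts, which the choice of members did not compare, the log2 fold change of PND 16 small vs. PND 13 was -1.20 (SE 0.505, 95% CI -2.28 to -0.11). The adjusted p = 0.217 of edgeR's quasi-likelihood test missed the threshold, so Itpkc was not differentially expressed there. For 1132 of the 13943 genes tested, all PND 16 small pools lay below all PND 13 pools. The exons of Itpkc overlap those of BC024978 on the opposite strand over 1273 of 5285 bp. The counting was not stated to use strand, so reads of this pair cannot be told apart there. BC024978 itself averaged 8.09 CPM in non-competent and 5.05 CPM in competent oocytes.

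Itpka (chromosome 2, 119742337 to 119751263, plus strand), the isoform best known from neurons, was close to the limit of detection, with 1 to 28 counts per pool. It was at 0.287, 0.703 and 1.15 CPM in PND 13, 0.194, 0.806 and 0.297 CPM in PND 16 small, 0.0409, 0.0789 and 0.119 CPM in PND 16 large and 0.172, 0.119 and 0.441 CPM in PND 40. The 3 PND 16 large pools held only 1, 2 and 3 counts. Summed over pools and divided by depth, the level in PND 13 was 9.15 times that of PND 16 large (52 against 6 counts, 95% CI 3.93 to 26.1, counting error only), and in PND 16 small 5.55 times (26 against 6 counts, 95% CI 2.23 to 16.5). Within the competent cohorts, PND 40 was at 3.14 times PND 16 large (19 against 6 counts, 95% CI 1.20 to 9.59, counting error only). Of the 19 counts, 12 came from PND 40 replicate 3. These intervals leave out the spread between pools, and edgeR, which includes it, called no Itpka difference between PND 40 and PND 16 large. The first 2 ratios also cross the groups that chose the family, and all 3 ratios are a description only. The fitted difference between competent and non-competent oocytes was -1.79 on the log2 scale (SE 0.63), with overlapping pools. It no longer met the criteria when any 1 of 8 pools was left out, nor without the 3 pools richest in granulosa markers (-1.27).

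Itpkb (chromosome 1, 180330485 to 180424802, plus strand), the isoform known for lymphocyte development, varied most of the kinases among the non-competent pools, relative to its mean. Its level was 4.92, 0.234 and 5.44 CPM in PND 13 and 0.437, 5.92 and 1.48 CPM in PND 16 small, whereas it was 1.76, 3.04 and 1.75 CPM in PND 16 large and 4.59, 3.31 and 2.72 CPM in PND 40. The non-competent pools therefore lay on both sides of all competent pools. Means of 3.07 ± 2.63 and 2.86 ± 1.07 CPM (SD, n = 6 each) did not differ by more than this spread (log2 fold change -0.11, SE 0.62). The 3 pools at or above 4.92 CPM were those with the highest granulosa marker sums, and the other 3 non-competent pools were at or below 1.48 CPM. Without those 3 pools, a choice made after seeing the data that leaves 3 non-competent pools, Itpkb met the criteria in the opposite direction, higher in competent oocytes by 2.04 on the log2 scale. Whether RNA of granulosa cells contributed to the Itpkb counts was not tested. Granulosa sums ranged from 128 to 426 CPM in PND 13, 184 to 385 in PND 16 small, 166 to 180 in PND 16 large and 141 to 155 CPM in PND 40, with none of the markers at 0 in any cohort. Of the 10 granulosa markers, 9 were lower in competent oocytes and 2 met the criteria, namely Fshr, the receptor of follicle-stimulating hormone (log2 fold change -1.20, SE 0.42, edgeR adjusted p = 0.0432), and Kitl, the ligand of the oocyte receptor KIT (-0.98, SE 0.25, edgeR adjusted p = 0.00854).

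**Figure D3:**
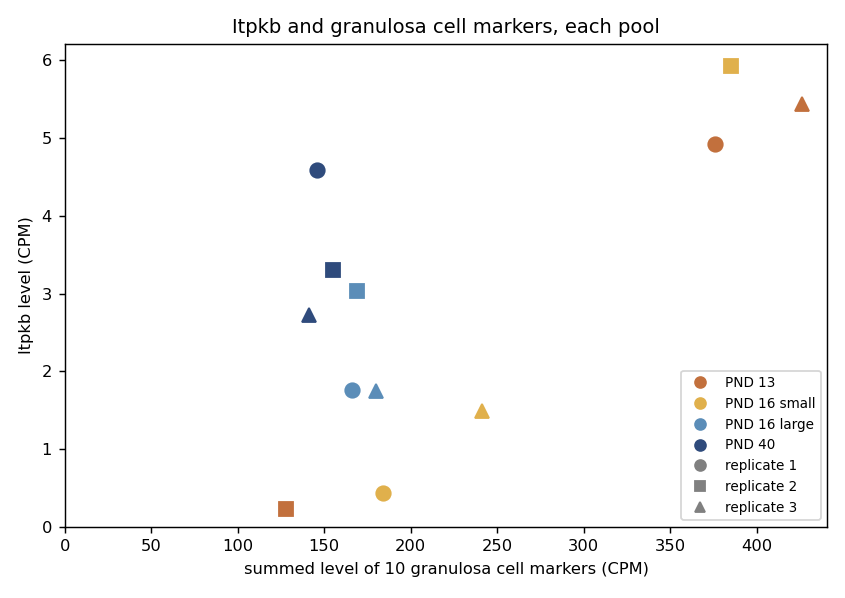
Level of Itpkb against the summed level of 10 granulosa cell markers (both CPM) in each of 12 pools, coloured by cohort, with the replicate number as the symbol. The 3 pools with sums of 376 to 426 CPM have 4.92 to 5.92 CPM of Itpkb, and among the other 9 pools the 6 competent ones have 1.75 to 4.59 CPM and the 3 non-competent ones 0.234 to 1.48 CPM.

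The kinases of the middle steps were abundant and varied little. Itpk1 (chromosome 12, 102568582 to 102704930, minus strand) averaged 228 ± 32.1 CPM in PND 13, 214 ± 27.8 in PND 16 small, 267 ± 16 in PND 16 large and 279 ± 9.63 CPM in PND 40 (SD, n = 3 each). Its log2 fold change in competent vs. non-competent oocytes was 0.305 (SE 0.08), with pools that overlapped because PND 13 replicate 2 reached 264 CPM. Ipmk (chromosome 10, 71347763 to 71433327, plus strand), which also acts as a scaffold in nutrient signalling, averaged 178 ± 18.9, 198 ± 20.7, 211 ± 9.82 and 228 ± 8.38 CPM in the same order. The difference was 0.225 (SE 0.07), a 1.17-fold change, and PND 16 small replicate 1, at 222 CPM, lay within the competent range. Ippk, the kinase that completes IP6, averaged 609 ± 61 CPM in non-competent and 616 ± 43.6 CPM in competent oocytes (n = 6 each). Its log2 fold change of 0.02 (SE 0.07, edgeR adjusted p = 0.892) was far from the criteria.

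Of the IP6 kinases, Ip6k1 was lower and Ip6k2 higher in competent oocytes. Ip6k1 (chromosome 9, 108002501 to 108048782, plus strand) was at 24.3, 21.1 and 25.8 CPM in PND 13, 19.8, 20.1 and 18.1 CPM in PND 16 small, 10.4, 13.9 and 13.5 CPM in PND 16 large and 13.2, 10.9 and 11.3 CPM in PND 40. The cohorts of each competence group did not overlap with those of the other, and the PND 16 small pools lay below all PND 13 pools. Means of 21.5 ± 2.92 and 12.2 ± 1.5 CPM gave a log2 fold change of -0.82 (SE 0.12), or 1.76-fold lower. For PND 16 small vs. PND 13 the difference was -0.29 (SE 0.14, 95% CI -0.60 to 0.02), with an adjusted p = 0.289 in edgeR's quasi-likelihood test, despite this lack of overlap. Of the 13943 genes tested, 1132 were lower without overlap in that comparison. Ip6k1 shares 942 bp of exon with Gm20662 on the same strand, which was not among the counted genes.

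Ip6k2 (chromosome 9, 108783796 to 108806337, plus strand), an isoform linked to cell death in other tissues, was at 62.1, 61.6 and 51.9 CPM in PND 13, 53.8, 61.6 and 57.2 CPM in PND 16 small, 81.9, 77.0 and 73.9 CPM in PND 16 large and 86.0, 79.5 and 79.9 CPM in PND 40. All 6 competent pools exceeded all 6 non-competent pools, yet the change was 1.37-fold and thus under the fold criterion (log2 fold change 0.46, SE 0.07). No overlapping gene is annotated over its exons.

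Ip6k3 (chromosome 17, 27143965 to 27167795, minus strand), the isoform typical of skeletal muscle, was at 4.35, 3.83 and 6.96 CPM in PND 13, 5.98, 4.03 and 8.96 CPM in PND 16 small, 2.05, 1.06 and 2.71 CPM in PND 16 large and 1.24, 2.19 and 0.992 CPM in PND 40. No competent pool reached the lowest non-competent one. The mean was 3.32-fold lower in competent oocytes (log2 fold change -1.73, SE 0.31). Relative to Ip6k1 per kb of exon, Ip6k3 was at 0.583 ± 0.144 in PND 13, 0.92 ± 0.414 in PND 16 small, 0.436 ± 0.194 in PND 16 large and 0.354 ± 0.177 in PND 40 (SD, n = 3 each). In PND 16 small replicate 3 it exceeded Ip6k1, with a ratio of 1.37.

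The opposite directions changed the balance of Ip6k2 and Ip6k1 within a pool, a ratio that needs no scaling between pools. Per kb of exon, Ip6k2 counts were 4.08, 4.66 and 3.22 times those of Ip6k1 in PND 13 and 4.34, 4.88 and 5.05 times in PND 16 small. They were 12.5, 8.84 and 8.71 times in PND 16 large and 10.4, 11.7 and 11.2 times in PND 40. Every competent pool exceeded every non-competent pool. Both genes helped to choose the family, so this ratio is likewise a description.

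**Figure D4:**
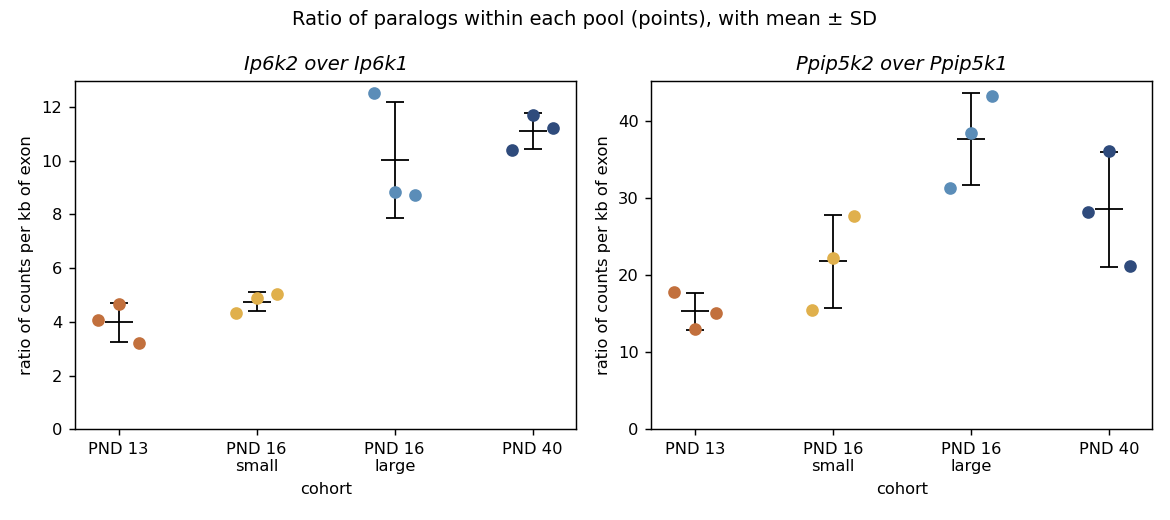
Ratio of paralogs within each pool, in counts per kb of exon (linear axes starting at 0), for Ip6k2 over Ip6k1 and for Ppip5k2 over Ppip5k1, with the mean ± SD of n = 3 pools per cohort in black. Ip6k2 over Ip6k1 lies between 3.22 and 5.05 in non-competent and between 8.71 and 12.5 in competent pools, while the ratios of the other pair overlap between these groups.

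The last step, from IP7 to IP8, was carried by a rare and an abundant transcript. Ppip5k1 (chromosome 2, 121310561 to 121355396, minus strand) was at 14.6, 18.1 and 16.1 CPM in PND 13, 16.4, 13.8 and 10.9 CPM in PND 16 small, 11.1, 8.48 and 7.72 CPM in PND 16 large and 10.04, 7.57 and 10.9 CPM in PND 40. The groups met at PND 16 small replicate 3, which lay below PND 16 large replicate 1. Ppip5k1 averaged 15 ± 2.53 CPM in non-competent and 9.29 ± 1.57 CPM in competent oocytes, 1.61-fold lower (log2 fold change -0.69, SE 0.15). Its exons share 272 bp with Map1a on the opposite strand, which averaged 17.6 CPM in non-competent and 10.6 CPM in competent oocytes, and without stated strand the reads of that stretch cannot be told apart.

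Ppip5k2 (chromosome 1, 97706048 to 97770411, minus strand) was the only one of the 10 kinases whose mean was highest in PND 16 large. It was at 298, 271 and 279 CPM in PND 13, 293, 352 and 346 CPM in PND 16 small, 398, 375 and 385 CPM in PND 16 large and 326, 315 and 266 CPM in PND 40. The 3 PND 16 large pools were the highest of all 12. Competent and non-competent oocytes differed little (log2 fold change 0.17, SE 0.10). Of the PND 40 pools, 2 lay within the non-competent range and replicate 3 was the lowest of all 12 pools. The ratio of Ppip5k2 to Ppip5k1 per kb of exon averaged 15.3 ± 2.41 in PND 13, 21.8 ± 6.06 in PND 16 small, 37.6 ± 5.99 in PND 16 large and 28.5 ± 7.45 in PND 40 (SD, n = 3 each). An overlap of 84 bp with Gin1 lies on the opposite strand, and Gin1 averaged 18 CPM in non-competent and 3.5 CPM in competent oocytes.

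The 2 comparisons that stay within a competence group were tested, because the comparison that chose the genes did not contrast these cohorts. They are not wholly free of that choice. It used the same pools, it can favour genes with little spread inside a group, and earlier results of these data were known. In PND 40 vs. PND 16 large, both competent, Ppip5k2 was lower by 0.35 on the log2 scale (SE 0.09, 95% CI -0.54 to -0.16), with 302 ± 31.7 against 386 ± 11.5 CPM (SD, n = 3 each) and no overlap of pools. The adjusted p of 0.0307 in edgeR's quasi-likelihood test passed its threshold, but the change of 1.28-fold did not pass the fold criterion. Of all genes, 3.24% were lower with such an adjusted p when no fold was required. For 2574 of the 13943 genes tested, all PND 40 pools lay below all PND 16 large pools. By both criteria 0 of 10 kinases differed between these cohorts, whereas 3.66% of all genes did, and DESeq2 also called 0. Of the 10 kinases, only Ppip5k2 had an unadjusted p under 0.05 in edgeR, as did 3123 of the 13943 genes tested. Intervals for the abundant kinases were narrow, for instance -0.165 to 0.29 for Itpk1, -0.08 to 0.30 for Ipmk and -0.12 to 0.27 for Ip6k2 (95% CI of the log2 fold change). Those of the rare ones were wide, for instance -0.46 to 3.58 for Itpka and -1.42 to 2.805 for Itpkb, so that differences were hardly detectable for these genes in these fits. The spread of a gene was estimated over all 4 cohorts together, which for Itpkb includes the scattered non-competent pools.

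In PND 16 small vs. PND 13, both non-competent, 0 of 10 kinases differed by the criteria in edgeR and 0 in DESeq2, and 0.373% of all genes differed. Unadjusted p-values were under 0.05 for 2 kinases, Itpkc (above) and Ppip5k2, which was at 330 ± 32.3 against 283 ± 14.1 CPM (log2 fold change 0.22, SE 0.09, 95% CI 0.035 to 0.41, edgeR adjusted p = 0.186). Such unadjusted p-values were found for 2684 of the 13943 genes tested, so nothing is read from the count of 2. Ip6k2 had a log2 fold change of -0.02 (95% CI -0.22 to 0.175) and Itpk1 of -0.09 (95% CI -0.32 to 0.135). The median over the 10 kinases was -0.17, and -0.03 over all genes.

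**Figure D5:**
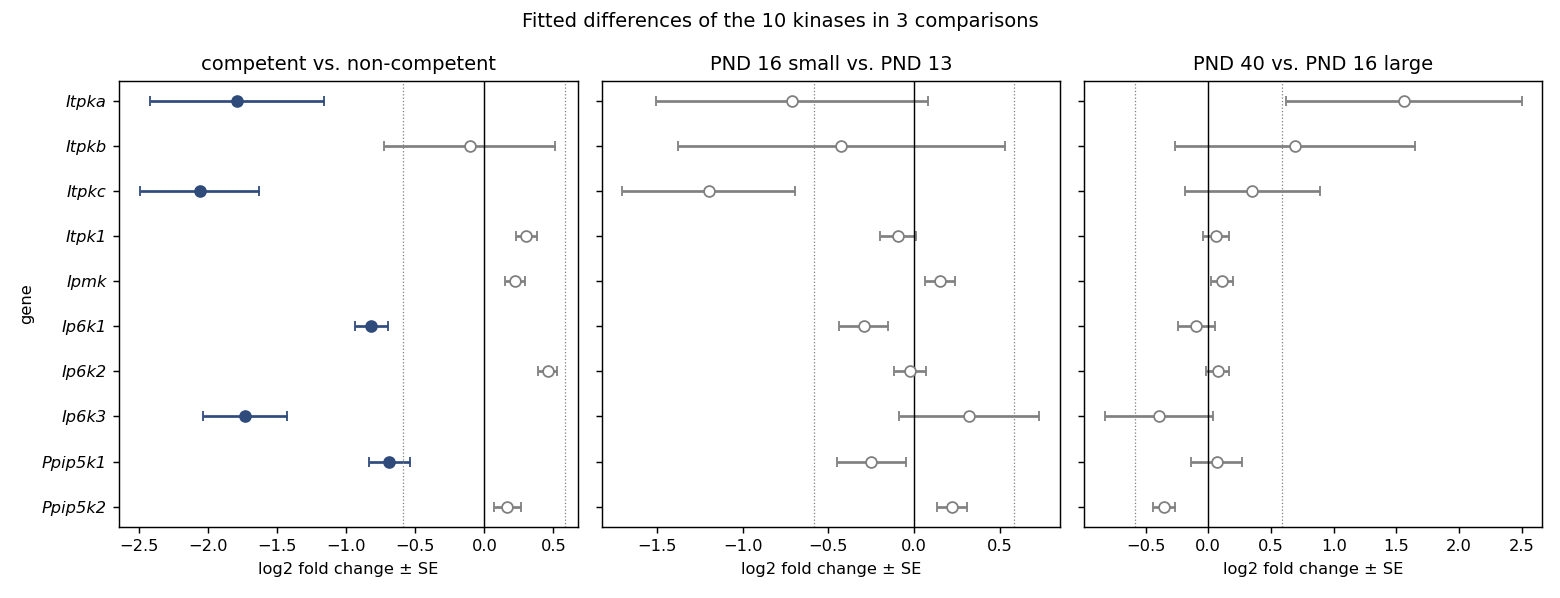
Log2 fold change ± SE of the 10 kinases in competent vs. non-competent oocytes (6 vs. 6 pools), between the non-competent cohorts (PND 16 small vs. PND 13) and between the competent ones (PND 40 vs. PND 16 large, 3 vs. 3 pools each), on axes that differ between panels. Filled points met the criteria of adjusted p and fold, dotted lines mark a 1.5-fold change, and the 5 filled points, all in the first panel, lie between -2.06 and -0.69.

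The cohorts that cross the competence groups were compared pairwise as well, again as a description, and these 4 comparisons share their pools with each other and with the comparison above. In PND 16 large vs. PND 13, 5 kinases were lower by the criteria (9.8% of all genes were), with log2 fold changes of -3.08 (SE 0.91) for Itpka, -2.72 (SE 0.54) for Itpkc, -1.38 (SE 0.42) for Ip6k3, -0.91 (SE 0.15) for Ip6k1 and -0.84 (SE 0.20) for Ppip5k1. In PND 40 vs. PND 13, 4 of these were lower (12.6% of all genes), namely Itpkc at -2.37 (SE 0.53), Ip6k3 at -1.77 (SE 0.43), Ip6k1 at -1.005 (SE 0.15) and Ppip5k1 at -0.775 (SE 0.20). In PND 16 large vs. PND 16 small, mice of the same age, 2 kinases were lower (4.76% of all genes), Ip6k3 at -1.70 (SE 0.43) and Ip6k1 at -0.62 (SE 0.15). In PND 40 vs. PND 16 small, the same 2 were lower (10.3% of all genes), Ip6k3 at -2.09 (SE 0.43) and Ip6k1 at -0.71 (SE 0.15). Ip6k1 and Ip6k3 thus met the criteria in all 4 pairwise comparisons, and no kinase was higher by the criteria in any of them with all 12 pools. Some of these calls hung on single pools. In PND 16 large vs. PND 16 small, Ip6k3 lost its call without PND 16 large replicate 1 or 2 or PND 16 small replicate 3. Ip6k1 lost its call there without PND 16 large replicate 1 or PND 16 small replicate 2. In PND 16 large vs. PND 13, Ip6k3 lost its call without PND 13 replicate 3 or PND 16 large replicate 1 or 2. Without the 3 pools richest in granulosa markers, which leaves 1 PND 13 pool and 2 PND 16 small pools, only Itpkc (-2.83) was lower by the criteria in PND 16 large vs. PND 13 and only Ip6k3 (-1.93) in PND 16 large vs. PND 16 small. In the same setting, Itpkc (-2.48) and Ip6k1 (-0.83) were lower in PND 40 vs. PND 13, and Ip6k1 (-0.68) and Ip6k3 (-2.33) in PND 40 vs. PND 16 small. Itpkb was then higher by the criteria in PND 16 large vs. PND 13 (3.195), PND 40 vs. PND 13 (3.89) and PND 40 vs. PND 16 small (1.91). The lone PND 13 pool, with the lowest Itpkb level of all 12, is assumed in these fits to vary like the other cohorts.

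The genes around the kinases were read from a list of 38 others that make, break, sense or respond to inositol phosphates, of which 34 passed the filter on low counts. In competent vs. non-competent oocytes, 1 of the 34 was higher and 8 were lower by the criteria, where 3.78% of all genes were higher and 11.2% lower. Of 5 tested genes that make, carry or use inositol itself, 2 were lower. Slc5a3, a sodium-coupled myo-inositol transporter, fell from 53.1 ± 16.7 to 20.2 ± 2.51 CPM (SD, n = 6 each; log2 fold change -1.395, SE 0.19, edgeR adjusted p = 0.000136). Isyna1, the synthase that makes inositol from glucose 6-phosphate, fell from 30.2 ± 9.09 to 16.6 ± 1.25 CPM (-0.86, SE 0.165, edgeR adjusted p = 0.00143). Neither gene had a competent pool within the non-competent range. The granulosa-rich pools, PND 13 replicates 1 and 3 and PND 16 small replicate 2, had the most Isyna1 (35.1, 44.7 and 32.6 CPM). The other non-competent pools held 26.1, 22.1 and 20.6 CPM of it. For Slc5a3, PND 16 small replicate 2 was instead the lowest non-competent pool, at 30.2 CPM. Whether granulosa RNA contributed was not tested, and the 34 genes were not examined without those pools.

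Among 10 tested phospholipases C, which release IP3, 2 were lower by the criteria, Plch1 (log2 fold change -0.80, SE 0.245, edgeR adjusted p = 0.0232) and Plcd1, which averaged less than 1 CPM. The sperm factor Plcz1 was not tested for its low counts. None of the 3 IP3 receptors, the channels that IP3 opens, met the criteria. Itpr1, the main receptor of the egg, averaged 430 ± 47.9 CPM in non-competent and 420 ± 46.1 CPM in competent oocytes (log2 fold change -0.03, 95% CI -0.215 to 0.15, edgeR adjusted p = 0.811).

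Of 9 phosphatases, 1 was higher and 2 were lower. Nudt4, which hydrolyses inositol pyrophosphates back to IP6, rose from 57.3 ± 14.8 to 117 ± 44.5 CPM (log2 fold change 1.03, SE 0.26, edgeR adjusted p = 0.0105). The groups overlapped, with 58.8 to 91.2 CPM in PND 16 large and 51 to 76.6 CPM in PND 13. In PND 16 large vs. PND 13, 0 of the 9 phosphatases were higher by the criteria. Nudt4 also rose in PND 40 vs. PND 16 large, from 79.4 ± 17.9 to 154 ± 20.1 CPM (0.96, SE 0.25, edgeR adjusted p = 0.0465). There it was the only one of the 34 to meet the criteria. That call was lost when any 1 of 9 pools was left out, each of the 6 pools compared among them. Nudt11, of the same family, fell from 1.48 ± 0.548 to 0.712 ± 0.166 CPM (-1.05, SE 0.33, edgeR adjusted p = 0.0251), and Impa1, an inositol monophosphatase, fell from 3.18 ± 1.2 to 1.4 ± 0.731 CPM (-1.19, SE 0.37, edgeR adjusted p = 0.0253). Of 6 proteins known to hold or sense inositol phosphates, 2 were lower, the RNA-editing enzyme Adarb1, with IP6 buried in its fold (-0.91, SE 0.14, edgeR adjusted p = 0.000391), and the histone deacetylase Hdac3, whose complex binds an inositol phosphate (-0.62, SE 0.13, edgeR adjusted p = 0.00228). In PND 16 small vs. PND 13, 0 of the 34 met the criteria in edgeR and 2 did in DESeq2. In edgeR, 11 of the 34 had an unadjusted p under 0.05, as did 2684 of the 13943 genes tested. The median log2 fold change of the 34 in competent vs. non-competent oocytes was -0.165.

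For the 3 most abundant kinases, the genes with the most similar course over the 12 pools were sought among the 11947 tested genes that averaged 1 CPM or more, by Pearson correlation of log2 CPM. Itpk1 was most like Eif2b4 (r = 0.974) and Gpn1 (r = 0.971), Ipmk most like Mest (r = 0.966) and Usp30 (r = 0.951), and Ppip5k2 most like Tnfaip8 (r = 0.927) and Prdm1 (r = 0.924). The points share their libraries and cohorts, and these values describe likeness only.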

How the data were processed

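RNA-Seq was performed on rRNA-depleted directional libraries of 12 oocyte pools. The authors deposited raw counts per gene, without normalization, and log2 values, which equal the log2 of each count over a size factor plus a pseudocount of 1 (tested on the values). The submitters' processing notes name STAR, HTSeq, DESeq2 and mm10, and strand use in counting is not given in the sources used here. Cohorts were taken from the sample labels.

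Differential expression was computed with edgeR 4.0.16 in R 4.3.3, and alternatives with DESeq2 1.42.0 and limma 3.58.1. Of 24562 genes, 13943 were kept by filterByExpr (minimum count 10), all 10 kinases included, and scaled by TMM (factors 0.955 to 1.07). Robust quasi-likelihood fits of 1 model of 4 cohorts, or of 2 competence groups, gave log2 fold changes, approximate SE and p-values, adjusted by Benjamini-Hochberg over all genes tested. The fits were tested on simulated data. Counts carry more error than counting alone, so the spread between pools was used. The pools of a cohort came from 3 mice and are described as independent, but no source ties each pool to a mouse, so p-values measure the spread between pools. Promoter windows are from RefSeq (GRCm38.p6).

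Members, lists and tests were chosen with earlier results of these data known. Named genes are the 10 kinases, Ippk, up to 3 called genes of each list averaging 1 CPM or more (those with the largest change), and the 2 genes most like each of the 3 most abundant kinases. Plcd1, Plcz1, Itpr1, Pecam1 and Cdh5 were added after their values were seen. Coordinates and exon lengths are those of GENCODE M21 (GRCm38). Alternatives were DESeq2, other scalings and filters, limma on log2 values, only the cohorts compared, no fold criterion, a replicate block and leaving out each pool. Removal of the 3 pools with the highest granulosa sums was added after seeing the data.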

Additional observations from a re-analysis of the deposited data

Results flagged for a closer look

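Itpka in PND 40 replicate 3 stood apart from the other competent pools. Its level of 0.441 CPM lay above the other 5, and its gap to the nearest of them was 0.673 of the whole range of the 6 competent pools. The value rests on few counts, and about 1 in 20 such groups would be marked by chance.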

How the results depend on the processing

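In competent vs. non-competent oocytes, the direction of Itpkc, Ip6k1, Ip6k3 and Ppip5k1 and their place within the criteria held under all 11 alternatives, in all 12 fits without 1 pool and without the 3 granulosa-rich pools. Itpka lost its call with no filter on low counts, in 8 of these 12 fits (without PND 13 replicate 2 or 3, PND 16 small replicate 2, any PND 16 large pool, or PND 40 replicate 1 or 2) and without the granulosa-rich pools. With no fold criterion, 8 kinases passed in competent vs. non-competent (with 30.7% of the genes tested), 7 in PND 16 large vs. PND 13 (25.6%), 7 in PND 40 vs. PND 13 (33.1%), 3 in PND 16 large vs. PND 16 small (12.3%), 4 in PND 40 vs. PND 16 small (30.2%) and 1 in PND 40 vs. PND 16 large (6.83%). In PND 16 large vs. PND 16 small, DESeq2 called 4 and a fit of only these cohorts 0. Without the granulosa-rich pools, which leaves PND 13 with 1 pool, 2 were called in PND 16 large vs. PND 13 (Itpkc lower, Itpkb higher) and 1 in PND 16 large vs. PND 16 small (Ip6k3). In PND 40 vs. PND 13, Ip6k3 and Ppip5k1 lost their calls and Itpkb became called as higher, as it did in PND 40 vs. PND 16 small. Itpkb in PND 16 small vs. PND 13, uncalled, went to 1.98 against that lone pool. DESeq2 called 2 pathway genes in PND 16 small vs. PND 13. The causes were not tested.

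Leaving out 1 pool gave 4 to 5 kinases in competent vs. non-competent, 3 to 5 in PND 16 large vs. PND 13 (3 without PND 13 replicate 3, PND 16 large replicate 1 or PND 16 large replicate 2), 3 to 4 in PND 40 vs. PND 13, 2 to 3 in PND 40 vs. PND 16 small and 0 to 2 in PND 16 large vs. PND 16 small (0 without PND 16 large replicate 1, 1 without PND 16 small replicate 2). Pathway genes called ranged from 5 (without PND 40 replicate 3) to 10 in competent vs. non-competent, 0 to 3 (3 without PND 16 small replicate 1) in PND 16 small vs. PND 13 and from 0 to 1 in PND 40 vs. PND 16 large. In PND 16 small vs. PND 13, log2 fold changes that turned, none of them called, ranged from -1.914 to 0.083 for Itpkb, -0.169 to 0.007 for Itpk1, -0.105 to 0.02 for Ip6k2 and -0.025 to 0.63 for Ip6k3, and in PND 40 vs. PND 16 large from -0.125 to 1.071 for Itpkc and -0.046 to 0.224 for Ppip5k1. Total-count scaling moved the median of all genes to -0.124 in PND 16 small vs. PND 13 and to -0.132 in PND 16 large vs. PND 13, where Ip6k2 was then at 0.312 and Ppip5k2 at 0.353.

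Replicate numbers did not pair the pools, since same-numbered pools of different cohorts deviated from their cohort means with correlations of -0.442 to 0.0753 over 18 pairs. With the replicate block, the numbers of kinases called stayed at 5 in competent vs. non-competent, 5 in PND 16 large vs. PND 13, 4 in PND 40 vs. PND 13, 2 in each comparison with PND 16 small that crosses the groups, and 0 in the others. Depth limits the IP3 3-kinases most, with 1 to 28 counts per pool for Itpka and 3 to 105 for Itpkc.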
